A study of Homo sapiens with 83 samples.

Results

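The transcripts described here encode 9 receptor tyrosine kinases that are studied in neuroblastoma, ALK, RET, EGFR, MET, AXL, PDGFRA, PDGFRB, FGFR1 and DDR2. They were found by symbol in a deposited table of 60237 genes, in which each of the 9 symbols had 1 entry. The table holds 83 RNA-seq libraries from 2 established human neuroblastoma cell lines, SHEP and SKNAS, each made to express N-MYC-ER, in which N-MYC is joined to a part of the estrogen receptor. The fusion protein enters the nucleus when 4-hydroxytamoxifen (4OHT) is added. MYC-ON cells received 4OHT and MYC-OFF cells ethanol, the vehicle, for 24 h before entrainment. Cells of every group were entrained with dexamethasone, which brings cell clocks to a common phase, and RNA was taken every 4 h from circadian time (CT) 24 h onwards. SHEP had 2 series of 14 time points in each condition (28 libraries of MYC-OFF and 28 of MYC-ON), and SKNAS had 1 series of each (14 libraries of MYC-OFF and 13 of MYC-ON, which ended at CT72). Each line is a single engineered line with no 4OHT-treated cells lacking the fusion among these groups, so the effect of 4OHT itself and that of active N-MYC-ER cannot be told apart. SKNAS was 1 experiment, so cell line and experiment cannot be told apart either.

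Receptor tyrosine kinases are membrane proteins that bind a ligand outside the cell, pair up and phosphorylate each other and docking proteins inside it, which switches on the RAS to MAPK and the PI3K relays. In neuroblastoma, ALK is the receptor best known for activating mutations, and RET is a receptor of the sympathetic nerve lineage that binds ligands of the GDNF family through GFRA co-receptors. EGFR, MET, AXL, PDGFRA and PDGFRB are receptors of growth factors that are typical of epithelial or mesenchymal cells, FGFR1 is widely expressed, and DDR2 is a receptor for fibrillar collagen. Neuroblastoma cells are described in adrenergic and mesenchymal states, and the mesenchymal state is known for high levels of several of these receptors.

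The values are TPM, transcript abundances divided by gene length and scaled to the same total in each library, so levels of different genes can be set side by side. Read depth is not kept in TPM, so the counting error of single values is unknown here. Each time point served as a replicate. In the main comparisons CT was a factor, so the level shared by the libraries of a time point was taken out. The p-values there measure the spread that remained between libraries of 1 or 2 experiments, and not a spread between many independent experiments. The libraries of SKNAS were unequal. The median of log2(TPM + 1) over expressed genes ranged from 3.93 to 4.17 in MYC-OFF and from 3.93 to 4.12 in MYC-ON libraries of SHEP. For SKNAS the range was wider, 2.97 to 4.38 without and 2.76 to 4.25 with active N-MYC-ER. It reached 3.8 in 10 of 14 SKNAS MYC-OFF libraries but in 3 of 13 SKNAS MYC-ON libraries (CT32, CT44 and CT52), so the results in SKNAS are given below with and without the other libraries. MYCN, which counts the transcript of the fusion as well, averaged 555 ± 70.8 TPM in MYC-OFF and 377 ± 69.5 TPM in MYC-ON of SHEP (SD, n = 28 each). In SKNAS it averaged 547 ± 341 TPM (SD, n = 14) and 365 ± 297 TPM (SD, n = 13). The fusion is switched at the protein, so this transcript showed that both lines carried it in both conditions but did not check which cells received 4OHT.

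The lines were compared with markers of the 2 neuroblastoma states. Of 16 adrenergic genes, 5 had a mean of at least 1 TPM in SHEP MYC-OFF and 11 in SKNAS MYC-OFF. Their summed level ranged from 54.7 to 81.3 TPM in SHEP MYC-OFF and from 420 to 1154 TPM in SKNAS MYC-OFF. PHOX2A, a homeobox factor of sympathetic neurons, averaged 232 TPM in SKNAS MYC-OFF and 0.00150 TPM in SHEP MYC-OFF. Of 20 mesenchymal genes, 19 had a mean of at least 1 TPM in MYC-OFF cells of each line. Their summed level ranged from 4830 to 6162 TPM in SHEP MYC-OFF and from 1000 to 2994 TPM in SKNAS MYC-OFF. SHEP thus expressed the mesenchymal list with few adrenergic genes, and SKNAS expressed most genes of both lists.

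RET, AXL and PDGFRB were lower in MYC-ON and passed the test given below under every setting tried, in each line that expressed them. The DNA just before their start sites is therefore shown. The sequences are RefSeq promoter entries (GRCh38.p14), cut off where the Gencode 44 gene begins, and capitals mark GGGCGG or its complement CCGCCC, the core of a GC box. RET lies on chromosome 10 (43077064 to 43130351, plus strand), AXL on chromosome 19 (41219223 to 41261766, plus strand) and PDGFRB on chromosome 5 (150113839 to 150155872, minus strand).
RET, chr10:43076819-43077063, plus strand: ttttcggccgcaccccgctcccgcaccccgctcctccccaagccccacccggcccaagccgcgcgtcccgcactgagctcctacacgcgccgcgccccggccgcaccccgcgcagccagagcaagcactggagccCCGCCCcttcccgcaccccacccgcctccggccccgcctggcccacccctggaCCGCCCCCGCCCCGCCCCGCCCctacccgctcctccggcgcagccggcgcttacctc
AXL, chr19:41218973-41219222, plus strand: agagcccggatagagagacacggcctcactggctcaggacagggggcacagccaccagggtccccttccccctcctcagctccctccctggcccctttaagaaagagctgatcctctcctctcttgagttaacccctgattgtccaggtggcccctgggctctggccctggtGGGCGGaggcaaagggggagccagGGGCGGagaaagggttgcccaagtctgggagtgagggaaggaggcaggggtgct
PDGFRB, chr5:150155873-150156095, minus strand: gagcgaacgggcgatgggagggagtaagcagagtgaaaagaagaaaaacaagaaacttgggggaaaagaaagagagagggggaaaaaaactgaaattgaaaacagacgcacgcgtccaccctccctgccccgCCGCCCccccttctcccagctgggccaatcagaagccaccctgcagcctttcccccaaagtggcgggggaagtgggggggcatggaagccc
The RET stretch holds 5 of these GC boxes, some of which touch or overlap, the AXL stretch holds 2 and the PDGFRB stretch holds 1.

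MYC proteins bind the E-box CACGTG, a palindrome that reads alike on both strands. The RefSeq promoter entries (250 bases before to 50 after the start) matched 8 of the 9 receptors, all but FGFR1, and the entry at the canonical Gencode start was searched. Of the 8 entries, 1 holds CACGTG, that of MET, against 7.26% of the 35116 entries of all genes. It lies from base 4 after the start and is shown in capitals within 30 bases.
MET, chr7:116672187-116672216, plus strand: gaggcagacagaCACGTGctggggcgggca
GGGCGG on either strand is in 44.95% of all entries and in 6 of these 8, those of ALK, RET, EGFR, MET, AXL and PDGFRB. TATAAA on either strand is in 11.5% of all entries and in 0 of these 8. Such matches describe the letters in this window and no binding was measured in these files.

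The lines held different sets of receptors. In SHEP MYC-OFF the highest was MET at 164 ± 16.7 TPM (SD, n = 28), followed by AXL at 137 ± 26.4, FGFR1 at 85.6 ± 5.82, EGFR at 33.3 ± 5.47, PDGFRB at 31.8 ± 4.44 and DDR2 at 25.8 ± 4.99 (SD, n = 28 for each). The ranges of mean ± SD of MET and AXL overlapped, as did those of EGFR, PDGFRB and DDR2 with their neighbours, while AXL, FGFR1 and EGFR were set apart in that order. PDGFRA, the sister receptor of PDGFRB, averaged 1.26 ± 0.701 TPM. In SKNAS MYC-OFF the highest was RET at 88.7 ± 40.7 TPM (SD, n = 14), followed by PDGFRB at 40.1 ± 22.4, DDR2 at 37.3 ± 19.6, EGFR at 26.0 ± 14.1, FGFR1 at 18.1 ± 9.08, MET at 16.7 ± 7.80 and AXL at 9.26 ± 4.79. Neighbours among these 7 overlapped within 1 SD, and AXL was set apart from PDGFRA below it, but the libraries varied together, and RET was the highest and AXL the lowest of the 7 in 14 of 14 libraries. The order of the other 5 changed between libraries. PDGFRA averaged 1.45 ± 0.867 TPM there. The plot of all libraries shows both sets.

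**Figure D1:**
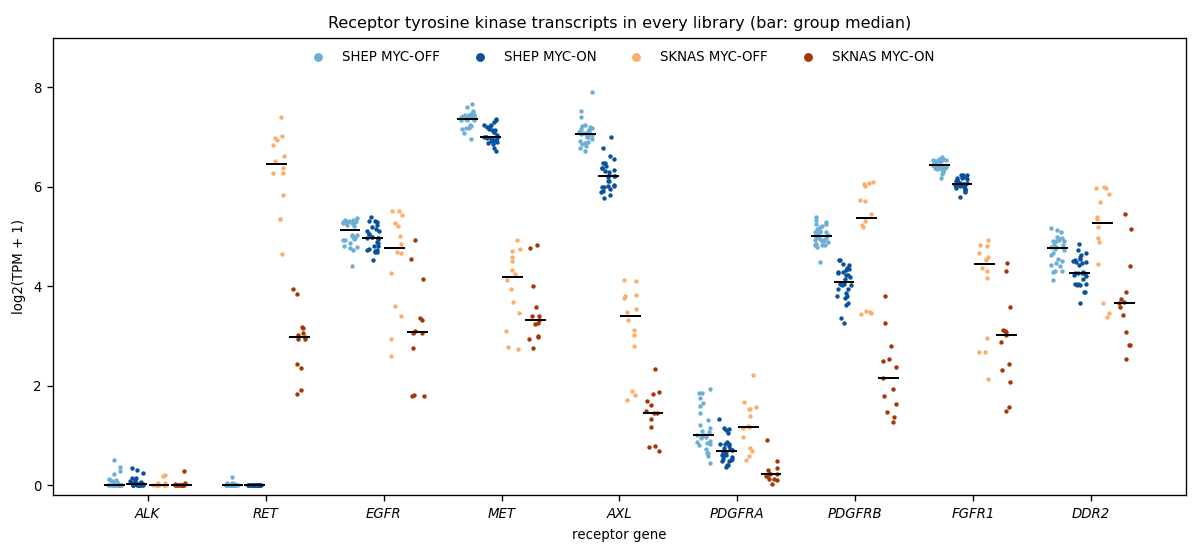
Each point is 1 library and each black bar the median of a group, on the log2(TPM + 1) scale, for the 9 receptors in SHEP MYC-OFF (n = 28) and MYC-ON (n = 28) and in SKNAS MYC-OFF (n = 14) and MYC-ON (n = 13). RET is high in SKNAS and at the floor in SHEP, MET, AXL and FGFR1 are highest in SHEP, and ALK is at the floor in all groups.

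ALK (chromosome 2, 29192774 to 29921586, minus strand) was at the floor everywhere. In SHEP it was above 0 TPM in 11 of 28 libraries without and 16 of 28 with active N-MYC-ER, in SKNAS in 4 of 14 and 3 of 13, and its highest value was 0.415 TPM. No difference in ALK was testable at these levels. Its ligands were also low, ALKAL2 at a mean of at most 0.0720 TPM in each group and ALKAL1 at 0.774 and 1.83 TPM in MYC-OFF and MYC-ON cells of SHEP. Genes that all cells use, such as TBP and POLR2A, were never at 0 in any library.

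RET separated the lines by absence and presence. In SKNAS MYC-OFF its lowest value was 24.2 TPM, its median 86.5 TPM and its highest 168 TPM. In SHEP MYC-OFF it was at 0 in 23 of 28 libraries with a highest value of 0.121 TPM, and in SHEP MYC-ON it was at 0 in 28 of 28. RET passed the filter of the line comparisons through SKNAS alone, so it is not counted among their calls, and since SHEP is at the floor no fold is given. GFRA2, the co-receptor through which RET binds neurturin, had the same line pattern, with a mean of 44.3 TPM in SKNAS MYC-OFF and 0.01 TPM in SHEP MYC-OFF, and NRTN, which encodes neurturin, averaged 4.59 and 0.20 TPM. GFRA1, the co-receptor for GDNF, ran the other way, with a mean of 3.81 TPM in SHEP MYC-OFF, and was at 0 in all SKNAS libraries. GDNF itself had a mean of at most 0.04 TPM in each group.

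MET, AXL and FGFR1 were higher in SHEP. In MYC-OFF cells the difference SHEP minus SKNAS on the log2(TPM + 1) scale was 3.37 ± 0.13 (SE) for MET (limma, Benjamini-Hochberg adjusted p = 1.04e-20), 3.92 ± 0.14 (SE) for AXL (4.12e-22) and 2.42 ± 0.18 (SE) for FGFR1 (7.45e-14). None of the ranges overlapped between lines for these genes, since the lowest SHEP MYC-OFF values were 124 TPM for MET, 104 TPM for AXL and 71.7 TPM for FGFR1, and the highest SKNAS MYC-OFF values were 29.7, 16.4 and 29.5 TPM. With the call set at an adjusted p of at most 0.05 and 0.66 on the log2 scale, these 3 receptors were higher in SHEP and 0 lower, of 7 tested besides RET. Of all 14926 genes tested, 31.8% were called higher and 18.7% lower in SHEP, and 3 of 7 is near the first of these shares.

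EGFR, PDGFRA, PDGFRB and DDR2 were not called different between the lines in MYC-OFF cells. The differences SHEP minus SKNAS were 0.59 for EGFR (95% confidence interval 0.21 to 0.96), -0.10 for PDGFRA (-0.37 to 0.18), -0.03 for PDGFRB (-0.42 to 0.35) and -0.30 for DDR2 (-0.65 to 0.06). These intervals rest on all SKNAS libraries. Against the 10 SKNAS MYC-OFF libraries with a median of at least 3.8, PDGFRB was lower in SHEP by a log2 difference of -0.66 (adjusted p = 1.39e-08), DDR2 by -0.81 (3.66e-08), and EGFR differed by 0.04 (0.729).

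In MYC-ON cells more receptors were called. EGFR (log2 difference 1.81), MET (3.57), AXL (4.77), PDGFRB (1.83) and FGFR1 (3.18) were called higher in SHEP, with limma adjusted p from 1.64e-26 for AXL to 7.71e-10 for EGFR, 5 of 6 tested besides RET. Among all 14620 genes tested, 43.6% were called higher and 15.8% lower in SHEP. The higher share of the calls was 73.4%, against 53.0% after median-of-ratios rescaling and 57.6% with the library median as a covariate. DDR2 (0.58, adjusted p = 0.00347) missed the size asked for. When the 3 SKNAS MYC-ON libraries with a median of at least 3.8 stood alone, EGFR was down to 0.43 and no longer called, DDR2 turned to -0.70 (0.0012), and PDGFRB was at 0.77 (0.00125).

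The 9 receptors were set against the 49 other receptor tyrosine kinases. The summed level of all 58 was 1118 TPM (median, range 916 to 1224) in SHEP MYC-OFF and 764 TPM (667 to 888) in SHEP MYC-ON. In SKNAS it was 750 TPM (257 to 944) in MYC-OFF and 256 TPM (133 to 503) in MYC-ON. The 9 made up a median of 42.8% of that sum in MYC-OFF and 44.2% in MYC-ON cells of SHEP, and the median in SKNAS was 34.0% and 17.6%. The share in SKNAS ran from 23.7% to 39.7% in MYC-OFF and from 14.9% to 29.5% in MYC-ON, and the summed TPM of the 9 from 69.9 to 361 and from 20.9 to 142.

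Activation of N-MYC-ER in SHEP was accompanied by lower levels of 5 of the 6 receptors that passed the filter of a mean of at least 1 TPM, and by a higher level of 0. Calls needed a log2 change of 0.15 or more besides an adjusted p no higher than 0.05. Of all 14362 genes tested in SHEP, 38.9% were called lower and 33% higher. The median log2 change was -0.39 over the 6 receptors and -0.04 over all genes. ALK, RET and PDGFRA did not pass the filter in SHEP.

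PDGFRB, the receptor of PDGF-B on mesenchymal cells, had the largest fall in SHEP. It ranged from 21.4 to 41.3 TPM (median 31.4) in MYC-OFF and from 8.57 to 22.2 TPM (median 16.1) in MYC-ON. All but 2 MYC-ON libraries lay below all MYC-OFF libraries, and MYC-ON was lower at 28 of 28 matched time points. The log2 change was -0.96 ± 0.07 (SE, limma adjusted p = 4.09e-16), and the mean in MYC-ON was 50.7% of that in MYC-OFF.

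AXL, the receptor of GAS6, ranged from 104 to 238 TPM (median 133) in SHEP MYC-OFF and from 53.9 to 128 TPM (median 73.9) in SHEP MYC-ON. MYC-ON was lower at 28 of 28 matched time points, and 2 of 28 MYC-ON libraries reached the lowest MYC-OFF library. The log2 change was -0.85 ± 0.06 (SE, limma adjusted p = 2.90e-18). The mean was 137 TPM in series 1 and 136 TPM in series 2 of MYC-OFF, against 83.5 and 68.5 TPM in MYC-ON.

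The other receptors of SHEP moved less. FGFR1 ranged from 71.7 to 96.4 TPM in MYC-OFF and from 54.4 to 75.0 TPM in MYC-ON and changed by -0.36 ± 0.03 on the log2 scale (adjusted p = 1.06e-15). MET ranged from 124 to 203 TPM and from 104 to 165 TPM and changed by -0.31 ± 0.04 (4.97e-10). DDR2 ranged from 16.6 to 34.9 TPM and from 11.7 to 27.98 TPM and changed by -0.42 ± 0.07 (2.57e-06). All 3 were lower in MYC-ON at 28 of 28 matched time points although the ranges of the groups overlapped. With the means of the 2 series as the only replicates, the fall of DDR2 no longer passed the test (adjusted p = 0.105).

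EGFR did not pass the test in SHEP. It ranged from 20.3 to 40.7 TPM (median 34.0) in MYC-OFF and from 22.0 to 40.8 TPM (median 30.4) in MYC-ON. MYC-ON was lower at 20 of 28 matched time points, and the log2 change was -0.11 (95% confidence interval -0.24 to 0.03, adjusted p = 0.143). With array weights, which give less weight to libraries far from their fit, it was -0.20 and was called (0.00485). PDGFRA, under the filter, averaged 1.26 TPM in MYC-OFF and 0.68 TPM in MYC-ON and was lower at 22 of 28 matched time points.

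In SKNAS, 6 of 7 receptors that passed the filter were called lower in MYC-ON and 0 higher. Of all 13886 genes tested in SKNAS, 34.4% were called lower and 13.7% higher. Higher genes made up 28.5% of all calls, 53.6% after rescaling and 52.0% with the library median as a covariate. The median log2 change was -1.35 over the 7 receptors and -0.29 over all genes. MYC-ON libraries had the lower medians here, so each receptor is given with its change after median-of-ratios rescaling (which puts the median of all genes at 0.03), with the library median as a covariate (0.01), and over the 13 libraries with a median of at least 3.8 (-0.05). The fit to those 13 libraries had no CT term, so it differs from the main fit in more than the libraries.

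RET had the deepest fall. It ranged from 24.2 to 168 TPM (median 86.5) in MYC-OFF and from 2.55 to 14.3 TPM (median 6.91) in MYC-ON. The groups did not overlap, and the mean in MYC-ON was 8.01% of that in MYC-OFF. The log2 change was -3.34 ± 0.22 (SE, limma adjusted p = 2.17e-08), and it was -3.01 after rescaling, -2.88 with the covariate and -3.11 in the 13 libraries. In the 3 MYC-ON libraries among those 13, RET was at 14.3 TPM (CT32), 13.4 TPM (CT44) and 7.36 TPM (CT52), against 76.1 to 168 TPM in the 10 MYC-OFF libraries.

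PDGFRB ranged from 9.92 to 67.3 TPM (median 40.7) in SKNAS MYC-OFF and from 1.40 to 12.997 TPM (median 3.46) in MYC-ON. MYC-ON was lower at 13 of 13 matched time points, and 1 of 13 MYC-ON libraries reached the lowest MYC-OFF library. The log2 change was -2.78 ± 0.33 (SE, limma adjusted p = 7.63e-06), and -2.48, -1.97 and -2.40 under the other settings in the order given for RET. The MYC-ON mean was 10.9% of the MYC-OFF mean. PDGFRB in the 3 MYC-ON libraries of the upper band was at 12.997, 5.95 and 8.62 TPM, and in the MYC-OFF libraries of that band it was at 35.7 to 67.3 TPM.

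AXL, low in SKNAS, ranged from 2.27 to 16.4 TPM (median 9.56) in MYC-OFF and from 0.604 to 4.08 TPM (median 1.75) in MYC-ON. MYC-ON was lower at 13 of 13 matched time points, although 3 of 13 MYC-ON libraries reached the lowest MYC-OFF library. The log2 change was -1.74 ± 0.20 (SE, limma adjusted p = 5.67e-06), and -1.47, -1.29 and -1.67 under the other settings. RET, PDGFRB and AXL thus passed the test in SKNAS under each of these settings.

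EGFR, DDR2 and FGFR1 also fell in SKNAS. All 7 receptors were lower in MYC-OFF libraries of low median, and for these 3 the fall was no longer called among libraries of high median. EGFR ranged from 5.05 to 45.0 TPM in MYC-OFF and from 2.47 to 29.7 TPM in MYC-ON, with a log2 change of -1.35 ± 0.30 (adjusted p = 0.00201). DDR2 ranged from 9.40 to 62.4 TPM and from 4.83 to 43.0 TPM, with a change of -1.29 ± 0.30 (0.00247). FGFR1 ranged from 3.37 to 29.5 TPM and from 1.80 to 21.2 TPM, with a change of -1.11 ± 0.31 (0.00825). Their groups overlapped widely, and MYC-ON was lower at 10, 10 and 11 of 13 matched time points. With the library median as a covariate the changes were -0.61, -0.55 and -0.34 and remained called. In the 13 libraries with a median of at least 3.8 they were -0.50 (adjusted p = 0.119), -0.52 (0.128) and -0.45 (0.0588), and none was called. Within MYC-OFF alone, EGFR was at 18.3 to 45.0 TPM in the 10 libraries of the upper band and at 5.05 to 9.57 TPM in the 3 libraries with a median below 3.3, and DDR2 was at 28.6 to 62.4 and 9.40 to 11.8 TPM. The other receptors did likewise, PDGFRB at 35.7 to 67.3 and 9.92 to 10.4 TPM, AXL at 7.16 to 16.4 and 2.27 to 2.71 TPM, and RET had medians of 106 and 39.6 TPM in these libraries. The part of the library median in these 3 falls was not tested beyond those settings.

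MET did not pass the test in SKNAS. It ranged from 5.72 to 29.7 TPM (median 17.3) in MYC-OFF and from 5.74 to 27.6 TPM (median 9.01) in MYC-ON, and MYC-ON was lower at 9 of 13 matched time points. The log2 change was -0.50 (95% confidence interval -0.995 to 0.00474, adjusted p = 0.0926), -0.15 after rescaling, 0.03 with the covariate and 0.15 in the upper band. With array weights it was -0.92 and was called (adjusted p = 8.65e-05), so both the call and the sign of MET depended on the setting. PDGFRA, under the filter, averaged 1.45 TPM in MYC-OFF and 0.22 TPM in MYC-ON and was lower at 12 of 13 matched time points. Among the 13 libraries of the upper band it passed the filter through MYC-OFF alone (mean 1.80 TPM, against 0.436 TPM in MYC-ON). Its call there is therefore not counted. It was at 0.961 to 3.66 TPM in these MYC-OFF libraries and 0.145 to 0.888 TPM in these MYC-ON libraries.

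**Figure D2:**
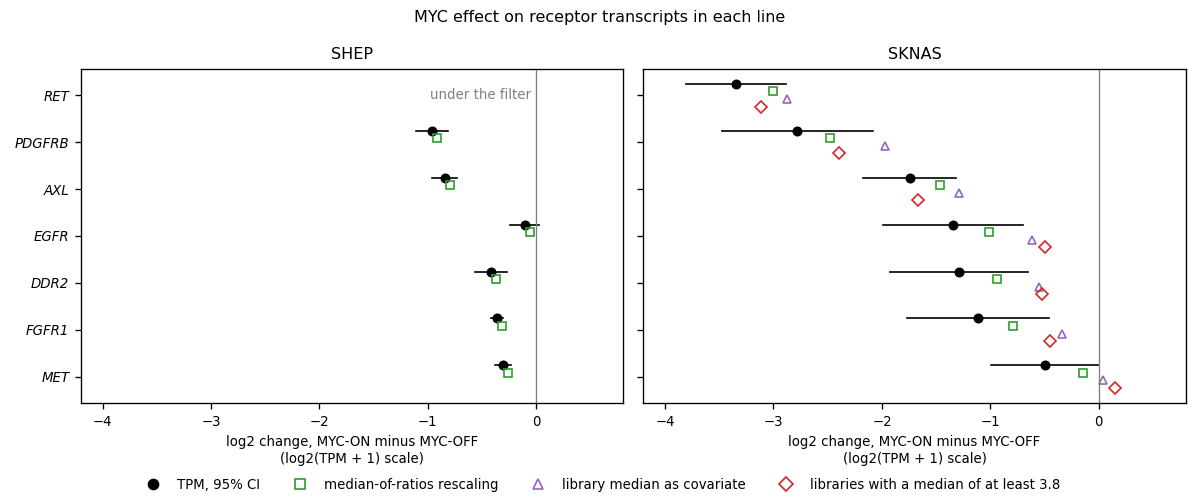
Log2 change from MYC-OFF to MYC-ON on the log2(TPM + 1) scale for the receptors tested in SHEP and SKNAS. Black points with lines are the TPM values with their 95% confidence intervals, and open symbols are the other settings. RET, PDGFRB and AXL stay below -1 in SKNAS under all 4 settings, whereas MET crosses 0.

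**Figure D3:**
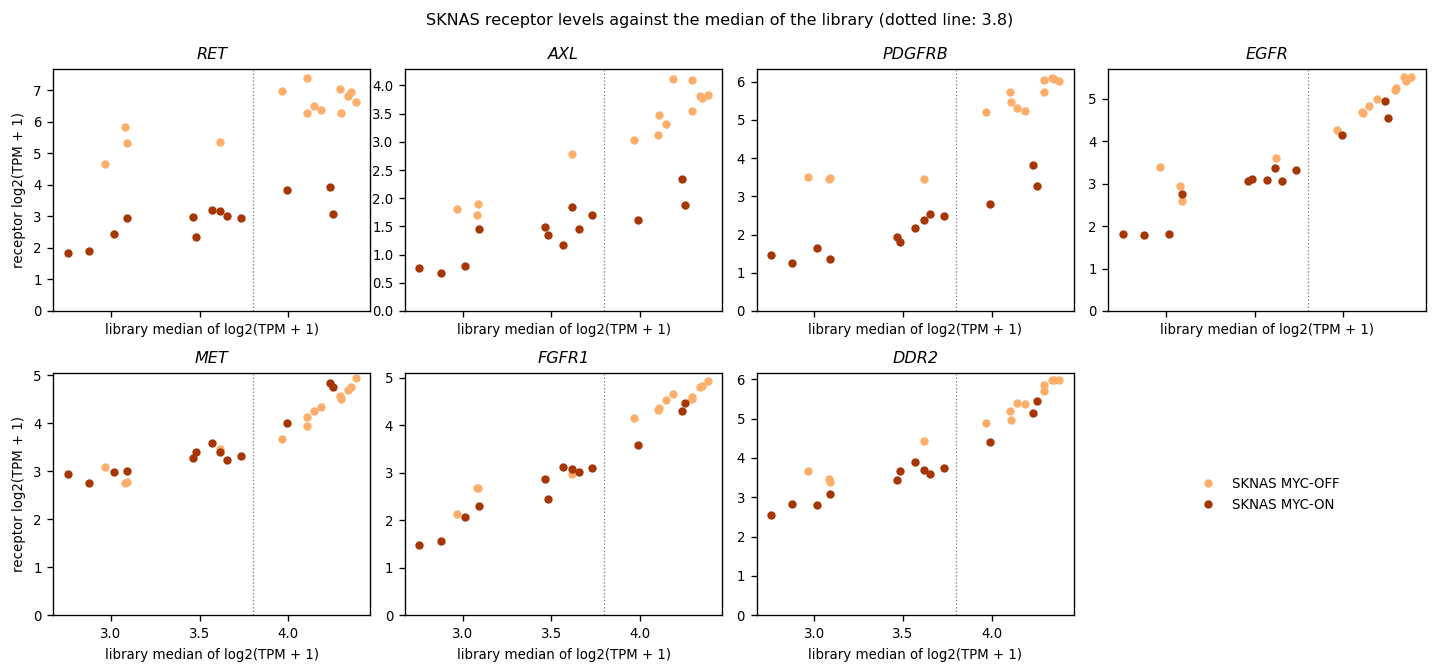
Receptor level against the median of log2(TPM + 1) of the same library in SKNAS, 1 point per library, 14 of MYC-OFF and 13 of MYC-ON. RET, PDGFRB and AXL of MYC-ON lie under those of MYC-OFF at like medians, while MET of both groups lies close together. EGFR, FGFR1 and DDR2 of the groups overlap at medians of at least 3.8. Below 3.3, DDR2 is at 9.40 to 11.8 TPM in MYC-OFF and 4.83 to 7.46 TPM in MYC-ON. There EGFR averages 7.10 and 3.32 TPM, and FGFR1 4.72 and 2.74 TPM.

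Whether the MYC effect differed between SHEP and SKNAS was tested by an interaction term in a fit to 83 libraries. The fall was deeper in SKNAS for PDGFRB, EGFR, AXL, DDR2 and FGFR1, 5 of the 6 receptors tested that both lines expressed, and 0 had a shallower one. Of all 14870 genes tested, 38.1% had a lower effect in SKNAS and 13.4% a higher one. The higher ones were 26.0% of the calls, 51.0% after rescaling and 52.8% with the covariate. The log2 difference SKNAS minus SHEP was -1.82 ± 0.23 (SE) for PDGFRB (limma adjusted p = 2.31e-09), -1.24 ± 0.21 for EGFR (2.40e-06), -0.90 ± 0.15 for AXL (1.01e-06), -0.87 ± 0.22 for DDR2 (0.000716) and -0.75 ± 0.19 for FGFR1 (0.00117). RET, at the floor in SHEP, could not fall there, and its value of -3.33 is the SKNAS fall itself. MET differed by -0.19 (95% confidence interval -0.50 to 0.12).

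These differences were smaller without the low SKNAS libraries. With only libraries of a median of at least 3.8, the difference was -1.44 for PDGFRB (adjusted p = 5.42e-08) and -0.82 for AXL (0.000989), both still called. It was -0.39 for EGFR (0.115), -0.09 for FGFR1 (0.592) and -0.10 for DDR2 (0.767), and none of these was called. MET turned to 0.46 (0.0183), a shallower fall or a rise in SKNAS against SHEP. AXL and PDGFRB were therefore the receptors that fell in both lines and more deeply in SKNAS in both fits.

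The members were followed over the sampled hours. In SHEP MYC-OFF, AXL fell along a linear trend by 0.22 ± 0.05 (SE) on the log2 scale per 24 h (limma adjusted p = 0.00484), from 238 TPM at CT24 to 116 TPM at CT76 in series 1 and from 168 to 130 TPM in series 2. The fall was not even, since AXL already stood at 136 and 118 TPM at CT36 in these series. EGFR changed by -0.12 ± 0.04 per 24 h (0.0303). These were 2 of 6 receptors, where 15.7% of all genes had a trend. With the library median as a covariate AXL stayed called (-0.19, adjusted p = 0.0175) and EGFR did not (-0.07, 0.0642). In SHEP MYC-ON, MET changed by -0.13 ± 0.04 per 24 h (0.00357) and EGFR by 0.13 ± 0.04 (0.00864), again 2 of 6, where 57.3% of all genes had a trend. With the covariate MET was at -0.00585 and no longer called (0.91), while EGFR stayed called (0.20, 0.00358). EGFR went from 29.8 to 38.8 TPM in series 1 of MYC-ON and from 34.8 to 40.8 TPM in series 2, and at CT76 of MYC-OFF it stood at 26.4 and 36.5 TPM. The difference of the EGFR slopes was not tested.

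In SKNAS 0 of 7 receptors had a trend by limma at an adjusted p of at most 0.05 in either group (lowest adjusted p 0.131 and 0.621). Of all genes, 0% had one in MYC-OFF and 0.0936% in MYC-ON. At an unadjusted p under 0.05 there were 5 of 7 receptors in MYC-OFF, beside 5076 of 13886 genes, and 2 of 7 in MYC-ON, beside 845 genes. A 24 h cosine, the test for a daily rhythm at a fixed period, was called for 0 receptors in the 4 groups, against 0.0905% and 0.0209% of all genes in MYC-OFF and MYC-ON cells of SHEP and 0% in both SKNAS groups. AXL was the 1 receptor of 6 with an unadjusted p under 0.05, beside 1500 and 1542 of 14362 genes, in SHEP MYC-OFF (amplitude 0.15 on the log2 scale, p = 0.000572, adjusted p = 0.149) and in SHEP MYC-ON (0.19, p = 0.00977, adjusted p = 0.367). In each SHEP series AXL was highest at CT24 except in series 2 of MYC-ON, where CT76 was highest.

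**Figure D4:**
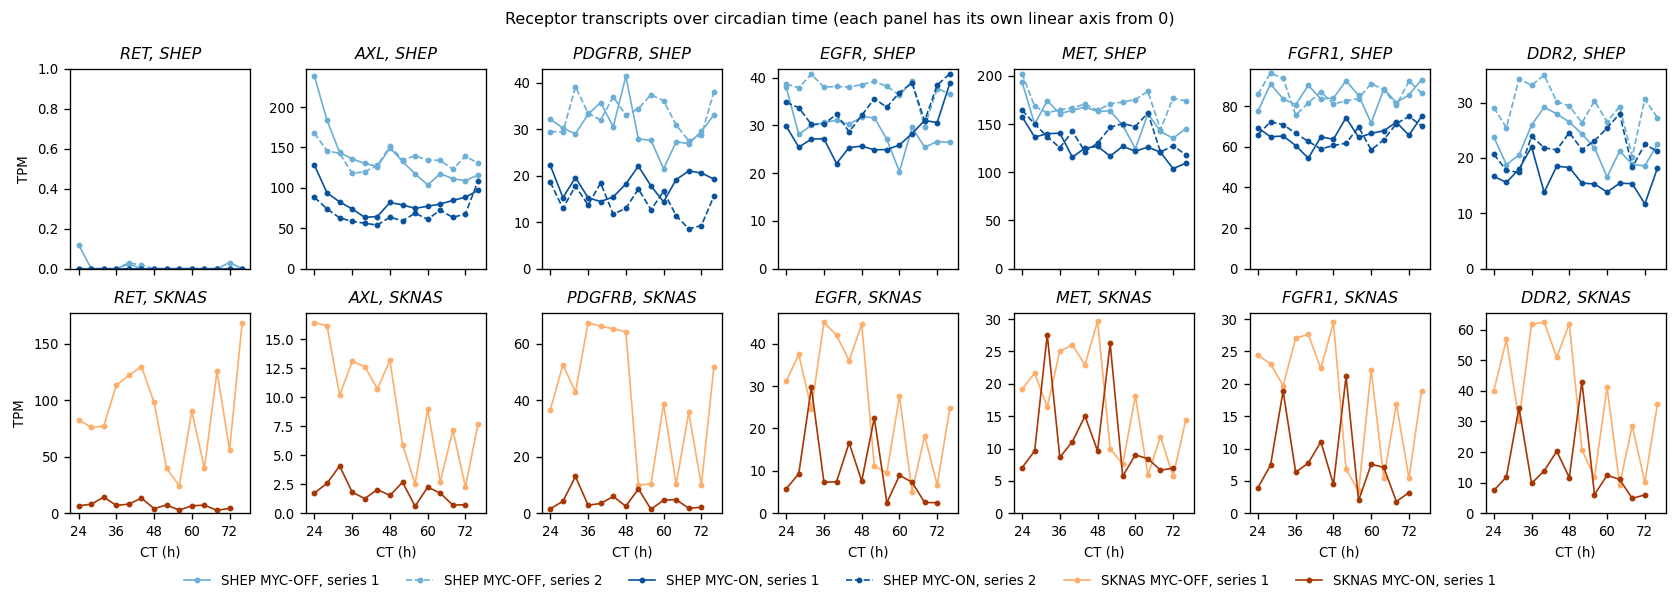
TPM of 7 receptors against circadian time in h, SHEP in the upper and SKNAS in the lower row, with lines for each series and a linear axis from 0 in each panel. In SHEP the MYC-ON lines of AXL, PDGFRB, FGFR1 and MET run below the MYC-OFF lines of the same series. In SKNAS MYC-ON the lines of EGFR, MET, FGFR1, DDR2, PDGFRB and AXL peak at CT32 and CT52. The libraries at these times have the highest medians of that group (4.24 and 4.25).

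The ligands of these receptors were read from a list of 29 genes. In SHEP, 8 of 13 tested were called lower and 3 higher in MYC-ON, with a median log2 change of -0.45. In SKNAS, 8 of 12 were called lower and 1 higher, with a median of -0.86. The medians of all genes were -0.04 and -0.29. Called lower or higher were 38.9% and 33% of all genes in SHEP, and 34.4% and 13.7% in SKNAS. After rescaling the counts were the same and the SKNAS median was -0.60. Rescaling gave 5138 lower and 5166 higher of all 14362 genes in SHEP, and 3315 and 3833 of 13886 in SKNAS.

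MET and its ligand were high in opposite lines. HGF, the ligand of MET, averaged 612 ± 258 TPM (SD, n = 14) in SKNAS MYC-OFF, where MET was low, and 0.149 TPM in SHEP MYC-OFF, where MET was the highest receptor. GAS6, the ligand of AXL, averaged 452 ± 58.8 TPM (SD, n = 28) in SHEP MYC-OFF, beside high AXL, and 0.185 TPM in SKNAS MYC-OFF. GAS6 and AXL therefore occurred together in SHEP, and HGF and MET at high level in separate lines. PROS1, the other ligand of the AXL family, was at 19.9 TPM in SHEP MYC-OFF and 18.9 TPM in SKNAS MYC-OFF.

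GAS6 fell with AXL in SHEP. It ranged from 328 to 547 TPM in MYC-OFF and from 80.9 to 226 TPM in MYC-ON, and the groups did not overlap (log2 change -1.70, limma adjusted p = 6.26e-23). PROS1 changed by -0.77 (SHEP) and -1.33 (SKNAS) on the log2 scale, both called. HGF changed in SKNAS by -0.87 (adjusted p = 0.0142), with overlapping ranges of 212 to 914 TPM and 101 to 903 TPM, and with the library median as a covariate its change of -0.23 was not called (0.101).

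Ligands of PDGFRB and PDGFRA were found in SHEP more than in SKNAS. PDGFA averaged 21.5 TPM, PDGFB 8.50 TPM and PDGFC 43.2 TPM in SHEP MYC-OFF, against 0.250, 0.867 and 11.9 TPM in SKNAS MYC-OFF. PDGFB, a ligand of PDGFRB, changed by -1.74 on the log2 scale in SHEP (adjusted p = 3.92e-21), and PDGFC changed by -0.83 in SHEP and -1.26 in SKNAS. PDGFRB and PDGFB thus both fell in SHEP.

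Collagens, the ligands of DDR2, were among the most abundant transcripts of the list. COL1A1 averaged 2727 TPM in SHEP MYC-OFF and 792 TPM in SHEP MYC-ON (log2 change -1.84, limma adjusted p = 7.19e-22), and 51.4 and 11.4 TPM in SKNAS (-1.99, 0.000316). COL3A1 averaged 1149 TPM in SKNAS MYC-OFF and 199 TPM in SKNAS MYC-ON (-2.63, 1.01e-05) and 0.04 TPM in SHEP MYC-OFF. DDR2 was expressed in both lines, beside COL1A1 in SHEP and mainly COL3A1 in SKNAS. Each of these collagen falls exceeded that of DDR2 in the same line.

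Among EGFR ligands, HBEGF averaged 32.9 TPM in SHEP MYC-OFF and 17.05 TPM in SKNAS MYC-OFF and changed by -0.41 in SHEP and -0.85 in SKNAS (adjusted p = 4.52e-06 and 0.000136). TGFA, another EGFR ligand, rose in SHEP from 7.04 to 12.7 TPM (0.64, 5.98e-09) and was near 0 in SKNAS. Of the FGFR1 ligands, FGF5 rose in SHEP (0.60, 2.18e-08) and fell in SKNAS (-1.43, 0.00544), with a called difference between the lines of -2.03 (4.06e-09).

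NRTN was the 1 ligand called higher in SKNAS. It ranged from 2.37 to 12.6 TPM in MYC-OFF and from 2.22 to 29.7 TPM in MYC-ON, with a log2 change of 0.87 (limma adjusted p = 0.00267). RET and GFRA2, the receptor parts for its product, fell in the same cells. GFRA2 ranged from 8.55 to 73.7 TPM in MYC-OFF and from 1.65 to 19.2 TPM in MYC-ON (-2.24, 6.55e-06).

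**Figure D5:**
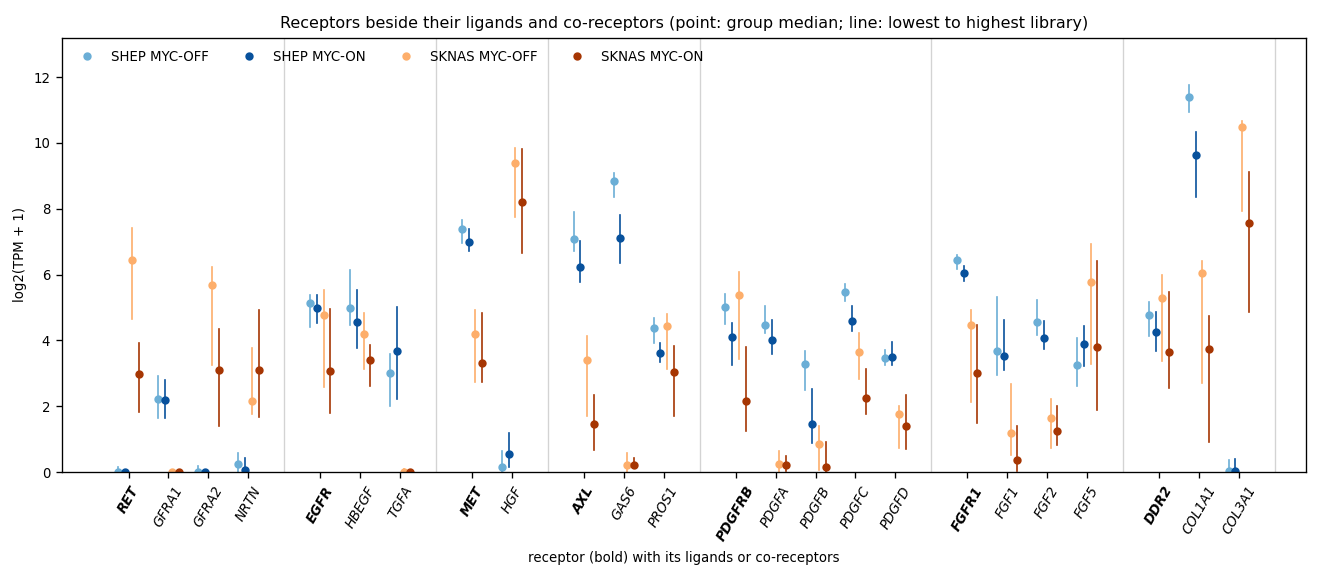
Receptors (bold) beside ligands or co-receptors on the log2(TPM + 1) scale, with a point for the median and a line from the lowest to the highest library of each of the 4 groups. HGF and MET are high in different lines, GAS6 and AXL are both highest in SHEP, and COL1A1 and COL3A1 differ between the lines.

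Co-receptors, 14 genes, help a ligand bind. In SHEP 6 of 9 tested were called lower and 0 higher, and in SKNAS 6 of 9 were called lower and 2 higher. The shares of all genes were 38.9% lower and 33% higher in SHEP, and 34.4% and 13.7% in SKNAS. NRP1, a neuropilin that binds several growth factors, changed by -1.49 in SHEP and -1.92 in SKNAS, and SDC1, a heparan sulfate syndecan, by -1.46 and -1.99. The other neuropilin, NRP2, fell in SHEP (-0.51) and rose in SKNAS from 1.40 to 12.9 TPM (2.51, limma adjusted p = 1.01e-08), and the difference between the lines was 3.01 (2.63e-31). NRP2 was singled out after its values were seen.

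Of the 49 other receptor tyrosine kinases, 17 of 23 tested in SHEP were called lower and 2 higher, and 12 of 18 tested in SKNAS were called lower and 1 higher. Their median log2 change was -0.28 in SHEP and -0.90 in SKNAS, beside -0.39 and -1.35 for the 9. Lower calls made up 38.9% and higher calls 33% of all genes in SHEP, and 34.4% and 13.7% in SKNAS. With the library median as a covariate the SKNAS counts were 9 lower and 4 higher, where 3620 of all 13886 genes were called lower and 3924 higher. EPHB6, an ephrin receptor without kinase activity, changed by -1.68 in SHEP and -1.55 in SKNAS, and DDR1, the sister of DDR2, by -1.21 and -2.15.

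The relay that these receptors share was read from 29 adaptors and RAS to MAPK genes. In SHEP 16 were called lower and 4 higher, and in SKNAS 10 lower and 2 higher. For all genes the shares were 38.9% lower and 33% higher in SHEP, and 34.4% and 13.7% in SKNAS. The 10 of 29 in SKNAS is thus near the share of all genes. SOS2, which loads RAS with GTP, changed by -1.02 in SHEP and -1.26 in SKNAS, FRS2, the docking protein of FGF receptors and RET, by -0.65 and -1.07, and MAP2K2, a MAPK kinase, by 0.37 and 0.59. The direction in SKNAS depended on scaling. With the covariate 4 were lower and 5 higher and the list median turned from -0.48 to 0.07, and the FRS2 and MAP2K2 changes there were no longer called. That fit called 3620 of all 13886 genes lower and 3924 higher.

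Genes that MAPK signalling induces, 20 in all and most of them brakes on it, were called higher in 10 of 20 and lower in 9 of 20 in SHEP, and higher in 3 of 18 and lower in 10 of 18 in SKNAS. Beside them, 33% of all genes were called higher and 38.9% lower in SHEP, and 13.7% and 34.4% in SKNAS. In SKNAS the split was 6 higher and 10 lower after rescaling and 6 higher and 8 lower with the covariate, and the list median went from -0.65 to -0.32 and -0.09. Over all 13886 genes it was 3833 higher and 3315 lower after rescaling, and 3924 and 3620 with the covariate. DUSP4, a phosphatase of ERK, fell in both lines (-0.76 and -1.42) and ETV4, a transcription factor induced by ERK, rose in both (1.30 and 0.54). SPRED3, an inhibitor of RAS to MAPK signalling, changed by -0.52 and -0.64 (not called in SKNAS with the covariate), and DUSP5, an ERK phosphatase, by 0.23 and 0.64.

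Some genes of this list went in opposite directions in the lines, and the 4 given here were chosen after their values were seen. SPRY1, which damps signals of FGF and other receptors, changed by 1.74 in SHEP and -1.19 in SKNAS (interaction -2.94, limma adjusted p = 2.94e-16). DUSP6, a phosphatase of ERK, changed by 0.85 and -1.57 (-2.42, 2.43e-12), SPRY2 by 0.28 and -1.25 (-1.53, 2.92e-12) and ETV5, an ERK-induced transcription factor, by 0.29 and -0.65 (-0.94, 3.12e-08). All 4 were still called lower in SKNAS under rescaling and under the covariate.

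Receptor turnover genes and phosphatases, 20 in all, were called lower in 9 and higher in 3 of 19 in SHEP, and lower in 8 and higher in 1 of 17 in SKNAS, where the covariate left 4 lower and 4 higher. Without the covariate, 38.9% of all genes were called lower and 33% higher in SHEP, and 34.4% and 13.7% in SKNAS. With it, 3620 of 13886 genes were called lower and 3924 higher in SKNAS. ADAM17, the protease that sheds EGFR ligands and other surface proteins, changed by -0.42 and -1.24, and PTPRJ, a receptor phosphatase, by -0.39 and -0.70 (not called in SKNAS with the covariate). PTPN2, a phosphatase of several receptors, rose in both lines (0.54 and 0.96).

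The markers of the 2 neuroblastoma states moved as follows beside the receptors. Of 10 adrenergic genes tested in SKNAS, 9 were called lower and 1 higher in MYC-ON, before and after both corrections. The 1 that rose was GATA2, a zinc finger factor of the sympathetic lineage (1.70 in SKNAS and 1.25 in SHEP). In SKNAS, 11 genes of this list averaged at least 1 TPM in MYC-OFF and 9 in MYC-ON. Not all of the 10 thus reached that mean in MYC-ON, and such a gene could hardly be called higher. In SHEP, 2 of 5 adrenergic genes tested were called higher and 1 lower. The median summed level of the 16 listed was 60.2 TPM in SHEP MYC-OFF and 97.5 TPM in SHEP MYC-ON, against 1039 and 646 TPM in SKNAS. Of the mesenchymal genes, 13 of 20 were lower and 5 higher in SHEP, and 10 of 19 lower and 2 higher in SKNAS (8 lower and 6 higher with the covariate). The main fits called 38.9% of all genes lower and 33% higher in SHEP, and 34.4% and 13.7% in SKNAS. Of all 13886 genes in SKNAS, 3315 were lower and 3833 higher after rescaling, and 3620 and 3924 with the covariate. FN1, fibronectin, changed by -2.24 and -1.76, FOSL2, an AP-1 factor, by -0.86 and -1.36, and TWIST2 by 1.36 and 1.17. RET in SKNAS fell beside most adrenergic genes tested, and PDGFRB and AXL fell in both lines beside part of the mesenchymal list. The part of cell state in the receptor values was not tested.

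The gene nearest to each receptor was found among 12298 others by the root mean square difference of log2(TPM + 1) values, centred on each gene's own mean, over the 83 libraries. It was AFF4 for EGFR (0.21), NXT2 for MET (0.23), GPRC5A for AXL (0.28), CAPN5 for PDGFRB (0.40), ZDHHC7 for FGFR1 (0.23) and KIDINS220 for DDR2 (0.20). The median distance of all genes ran from 0.73 for DDR2 to 2.05 for AXL. Among the receptors the closest pairs were FGFR1 and MET (0.45) and DDR2 and EGFR (0.55). PDGFRB was nearest to EGFR (0.66) and AXL to MET (0.66). The nearest gene was sought among all genes, the other receptors included, so it could not be farther than the nearest receptor. These distances therefore do not tell whether the receptors were more or less alike than other genes.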

How the data were processed

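The authors sequenced polyadenylated RNA, mapped it with Salmon 1.3.0 to a Gencode transcriptome of GRCh38 and collapsed transcripts to genes with Tximport. The deposited values are TPM for 83 libraries. All per-sample columns were mapped to samples by name. TPM keep no read depth, so the depth of a library is unknown, and limma 3.58.1 (R 4.3.3) on log2(TPM + 1) replaced the count model of the study. The pseudocount of 1 shrinks fold changes of weakly expressed genes. Genes with a mean of at least 1 TPM over the libraries of a fit were tested, with CT as a factor (line by CT for the interaction), and adjusted by Benjamini-Hochberg over all genes tested. Calls needed an adjusted p of at most 0.05 and 0.15 on the log2 scale, or 0.66 between lines. Of repeated symbols, the entry of highest mean was kept. Gene positions are from Gencode 44, also on GRCh38.

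Genes named beyond the 9 were MYCN, the nearest gene to each receptor, ligands and co-receptors with a group mean of at least 10 TPM and the 2 per list and direction with the largest smaller change among those called alike in both lines. GFRA1, GDNF, ALKAL1, ALKAL2, PDGFB and PHOX2A fall outside this rule and were picked with their values seen, for their roles. The members and lists were chosen with earlier results of these data known. The fits were tested on simulated data. Alternatives were another pseudocount (0.1), filters, rescaling, the library median as covariate, array weights, left-out series or time points, a replicate block, and 2 settings chosen after seeing the data, a variance weight per group and, for comparisons of both lines, only libraries with a median of at least 3.8. Every fit to only libraries with a median of at least 3.8 left out the CT term. U2OS cells and the later SKNAS time series were not analysed here.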

Additional observations from a re-analysis of the deposited data

Results flagged for a closer look

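For 5 receptors expressed in both lines the MYC effect differed between SKNAS and SHEP by the interaction test in limma, and RET passed that test too. The log2 difference SKNAS minus SHEP was -3.33 for RET, -1.82 for PDGFRB, -1.24 for EGFR, -0.90 for AXL, -0.87 for DDR2 and -0.75 for FGFR1. RET was at the floor in SHEP, so its value is the SKNAS fall and no difference between effects. SKNAS had 1 series with unequal library medians, and the values with only libraries of a median of at least 3.8 were -3.10 for RET, -1.44 for PDGFRB, -0.39 for EGFR, -0.82 for AXL, -0.10 for DDR2 and -0.09 for FGFR1.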

How the results depend on the processing

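The count of receptors called stayed within 1.5 times under 62 alternatives and not under 2, and among values of single receptors 389 kept their direction and side of the threshold, 12 lost the call, 8 gained it and 8 changed sign. Some alternatives in these counts could not differ. In SKNAS only MYC-OFF had CT76, so with CT as a factor its removal left the MYC estimates as they were. The filters likewise changed only which genes were tested and the adjusted p. With the library median as a covariate the receptors with a time trend went from 2 to 1 in SHEP MYC-OFF (EGFR lost) and from 2 to 1 in SHEP MYC-ON (MET lost). The changes of sign were as follows. The MET effect in SKNAS was 0.0343 with the covariate and 0.15 in libraries with a median of at least 3.8. The MET interaction was 0.0736 after rescaling, 0.26 with the covariate (adjusted p = 0.00833) and 0.46 in those libraries. The PDGFRB line difference in MYC-OFF, -0.03 in the main fit, was 0.0347 without replicate 1, while without replicate 2 it kept its sign (-0.0989). The DDR2 line difference in MYC-ON was -0.35 with the covariate and -0.70 in those libraries. The FGFR1 and DDR2 interactions were -0.13 and -0.24 with the covariate and not called, and the FGFR1 interaction was not called without SHEP series 1 (adjusted p = 0.0699) or without series 2 (0.0644). With a variance per group, 6 of 7 interactions stayed called, RET among them, although the weights of that fit stopped before full convergence.

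Leaving out each time point of SKNAS in turn gave 6 or 7 receptors called, MET being the 7th without CT32 (adjusted p = 0.0479) or CT52 (0.0158). The share of higher genes among all called in SKNAS was 28.5% as deposited, 53.6% after rescaling and 52.0% with the covariate, and for the interaction 26.0%, 51.0% and 52.8%. The replicate block in SHEP, with series 1 and 2 paired across conditions, left 5 receptors called. The series differences of MYC-OFF and MYC-ON correlated across 14362 genes (r = 0.489), but 2 pairs do not establish a pairing. No depth is given by TPM, so the precision of single low values such as ALK is unknown.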
